A study of Mus musculus with 4 samples.

Results

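The cells described here are Dcn-positive stromal cells of mouse adipose tissue, divided by whether they carried transcripts of the GFP lineage reporter. Within each single-cell library, a stromal cell was a barcode with at least 200 genes, at most 25% mitochondrial UMIs (counted transcript molecules), at least 3 UMIs of Dcn, at least 2 UMIs of Pdgfra, Lum and Dpt together, and no UMI of Ptprc, Pecam1 or Cdh5. A stromal cell with at least 3 UMIs of the reporter feature GFPcds was called marked, and one with none was called unmarked. The rule found 624 stromal cells among 4136 barcodes that passed the gene and mitochondrial limits, of 4927 barcodes deposited. Of these 624 cells, 131 were marked, 428 were unmarked and 65 had 1 or 2 GFPcds UMIs and entered neither class. The classes were thus selected on measured UMIs of GFPcds, and the stromal cells on those of Dcn, Pdgfra, Lum, Dpt, Ptprc, Pecam1 and Cdh5, so the values of these genes are given as a description, without a test.

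The mTmG reporter switches a cell from membrane Tomato (mT) to membrane GFP (mG) after Cre recombinase has acted in that cell or in an ancestor. Here Cre was driven by Tie2e, regulatory sequence of the gene Tek (Tie2), an angiopoietin receptor best known from endothelial cells (EC) and also found in part of the blood lineage. A GFP transcript therefore records past or present Cre activity and not the present state of a cell. Adipose stromal cells (ASC) are the fibroblast-like cells that make the extracellular matrix of the tissue and include the progenitors of adipocytes. They are usually told apart by Pdgfra and matrix proteoglycans such as decorin (Dcn) and lumican (Lum), while EC carry Pecam1 and Cdh5 and leukocytes carry Ptprc.

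There were 4 libraries of mixed cells, 1 for each of 4 groups. WT mice were Tie2e-cre; TERT+/+; mTmG and KO mice were Tie2e-cre; TERTfl/fl; mTmG, so that Cre and the reporter were in both genotypes and the floxed alleles only in KO. The mice were male and 7 months old, after 5 months of high-fat diet, and each genotype gave 1 library of subcutaneous (SC) and 1 of intraperitoneal (IP) adipose tissue. How many mice were pooled for a library is not given in the sources used here, and the labels speak of cells in one place and of nuclei in another. The study asked what loss of Tert in Tie2e-cre cells does to adipose tissue, whereas the comparison below sets marked against unmarked stromal cells of the same library. The 4 libraries served as the replicates of that comparison, with 29 marked and 44 unmarked cells for WT SC, 45 and 96 for KO SC, 42 and 151 for WT IP, and 15 and 137 for KO IP. Genotype and depot were never compared alone, since each combination was 1 library.

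Library totals ranged from 10015201 to 15533961 UMIs. Tert, the targeted gene (GRCm38 chromosome 13, 73626911 to 73649843, plus strand, protein coding), had over all barcodes 3 UMIs (WT SC), 2 (KO SC), 8 (WT IP) and 9 (KO IP), too few to check the genotype labels. In the stromal classes it had 2 UMIs in marked and 3 in unmarked cells of WT IP, 3 in unmarked cells of KO IP and none elsewhere. KO SC shared 93 barcode sequences with WT IP, whereas the other pairs of libraries shared 0 or 1. These barcodes had a median of 601 UMIs in KO SC against 35392 in WT IP, and a median of 99.1% of the genes they held in KO SC were also detected under the same barcode in WT IP. In KO SC, 47 of the 96 unmarked cells and none of the 45 marked cells were such barcodes. They held 4.21% of the UMIs of the unmarked sum of KO SC, and results that rest on them are given with and without them.

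Marked cells held much more GFPcds than the limit of 3. In WT SC they ranged from 3 to 111 UMIs with a median of 49, in KO SC from 3 to 56 with a median of 18, in WT IP from 4 to 131 with a median of 35, and in KO IP from 3 to 68 with a median of 20. Of the marked cells, 26 of 29, 31 of 45, 38 of 42 and 12 of 15 had at least 10 UMIs in the same order. Few cells lay near the limit: over the 4 libraries 51 stromal cells had 1 GFPcds UMI, 14 had 2, 5 had 3 and 5 had 4. As CPM, the UMIs of a feature scaled to a class total of 1000000, GFPcds in marked cells came to 1888 (WT SC), 1469 (KO SC), 1474 (WT IP) and 997 (KO IP). The features GFP and GFP.rev had no UMI in either class, and GFPcds.rev had 1 UMI in marked cells of WT SC and 1 in those of WT IP.

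**Figure D1:**
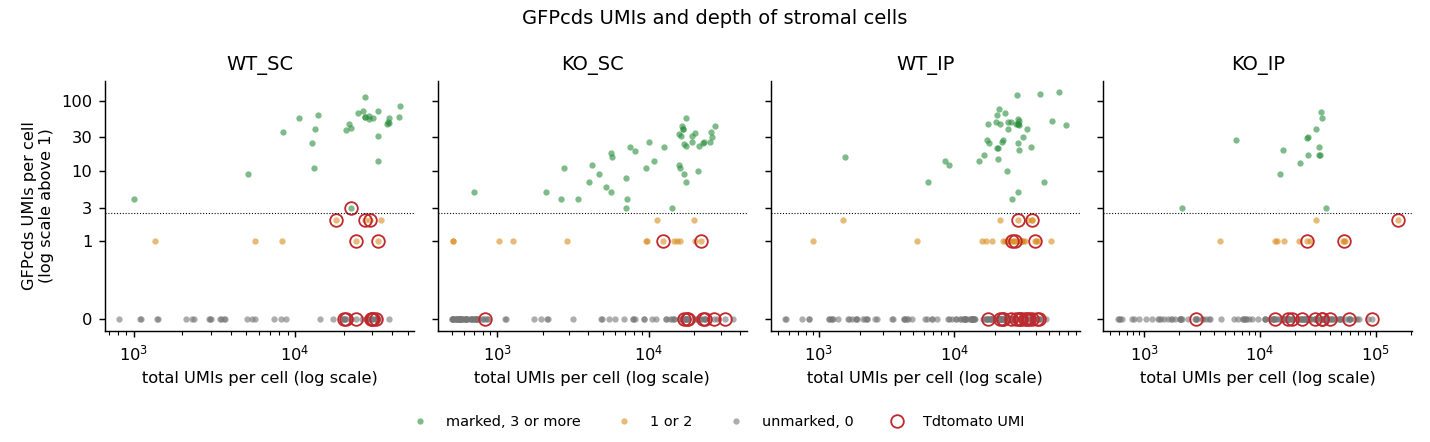
GFPcds UMIs per stromal cell (y axis, log scale above 1) against total UMIs of the cell (x axis, log scale), with 1 panel per library and 1 point per cell. Marked cells lie above the dotted line, cells with 1 or 2 GFPcds UMIs and unmarked cells below it, and circles mark the cells with a Tdtomato UMI, of which 1 is marked.

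The share of stromal cells that were marked differed between the libraries. It was 35.4% in WT SC (29 of 82, exact 95% interval 25.1 to 46.7), 28.8% in KO SC (45 of 156, 21.9 to 36.6), 18.9% in WT IP (42 of 222, 14 to 24.7) and 9.15% in KO IP (15 of 164, 5.21 to 14.6). The intervals cover counting error only, and with 1 library per group differences between libraries have no replicate behind them. Without the shared barcodes the share in KO SC was 42.5% (45 of 106), which turned the order of the SC libraries. With every stromal cell thinned to 5000 UMIs and shallower cells left out, the shares were 43.1%, 38.4%, 17% and 8.53% in the order WT SC, KO SC, WT IP and KO IP. Both SC shares were above both IP shares in each of these counts.

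Free reporter RNA was gauged in barcodes in which haemoglobin made up at least 50% of the UMIs, since red cells make little or no new RNA. At least 3 GFPcds UMIs were found in 4 of 220 such barcodes of WT SC (1.82%), 0 of 136 of KO SC, 4 of 250 of WT IP (1.6%) and 0 of 168 of KO IP. Their median depth of 8810, 5621, 9315 and 8328.5 UMIs compares with 20781.5, 7062, 22196.5 and 21533 UMIs in all stromal cells of the same libraries. GFPcds was 33.9, 9.17, 22.8 and 5.65 CPM in these barcodes, against 997 to 1888 in the marked stromal cells. The marked share of stromal cells was therefore above this background in every library.

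Leukocytes and EC of the same libraries were marked as well. Cells with at least 2 UMIs of Cd3d, Cd3e and Cd3g and none of Dcn were marked in 285 of 450 cases in WT SC (63.3%), 418 of 1144 in KO SC (36.5%), 75 of 112 in WT IP (67.0%) and 37 of 106 in KO IP (34.9%). B cells, gated on Cd79a and Cd79b, were marked in 38.4% and 21.5% in the SC libraries and in 2 of 20 and 2 of 21 cells in the IP libraries. Cells gated on macrophage transcripts were marked in 41 of 81 cases in WT IP and 6 of 27 in KO IP. Few EC were captured: barcodes with at least 2 UMIs of Pecam1 and Cdh5 and none of Dcn or Ptprc numbered 5, 14, 10 and 6, of which 4, 7, 8 and 1 were marked. The marked share was higher in T cells than in stromal cells of WT SC, WT IP and KO IP, with intervals that did not overlap. In KO SC the intervals overlapped, and without the shared barcodes the stromal share of 42.5% was above that of T cells.

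**Figure D2:**
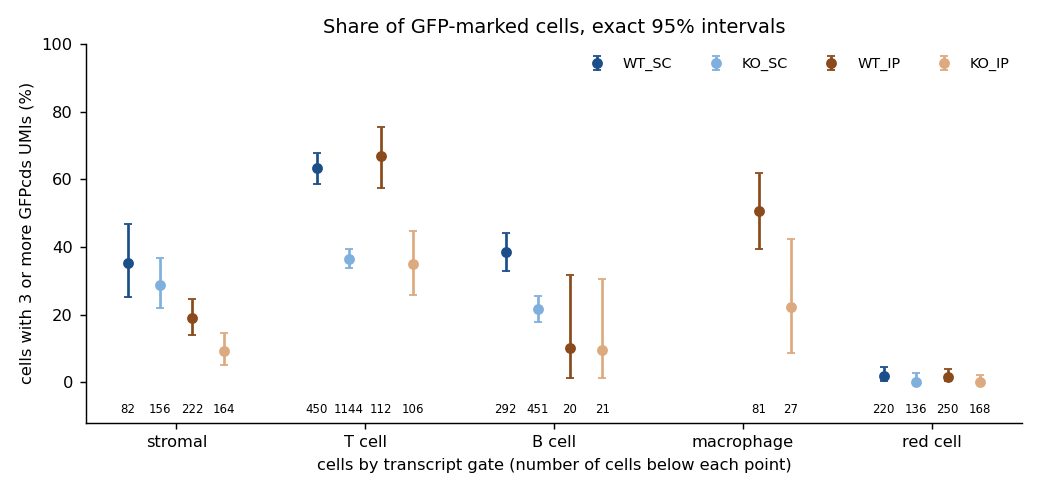
Share of cells with at least 3 GFPcds UMIs (y axis, percent) by transcript gate (x axis) and library, with exact 95% intervals for counting error and the number of cells under each point. Stromal shares run from 9.15% to 35.4% and those of red-cell barcodes from 0 to 1.82%; gates with under 20 cells in a library are not drawn.

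Marked cells were deeper than unmarked cells in every library. Their median was 27062 UMIs against 15700.5 in WT SC, 15817 against 1000.5 in KO SC, 24968.5 against 20094 in WT IP and 26112 against 18969 in KO IP. Without shared barcodes the unmarked median of KO SC was 14659 UMIs. The number of genes per cell followed, with medians of 5242 against 4269, 4064 against 619.5, 5327.5 against 4711 and 5605 against 4897. A limit on a UMI count favours deep cells, so this direction is one the rule favours. The median mitochondrial share was 1.62% against 1.87%, 1.90% against 2.13%, 2.505% against 2.35% and 2.44% against 2.22%, lower in marked cells of SC and higher in those of IP.

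Tdtomato, the mT arm of the reporter, was almost absent from marked cells. It had 1 UMI in 1 marked cell of WT SC and none in those of KO SC, WT IP and KO IP, where a count of 0 allows up to 5.04, 2.67 and 8.06 CPM. Unmarked cells held 10 UMIs in 7 cells of WT SC, 10 in 8 cells of KO SC, 18 in 15 cells of WT IP and 12 in 11 cells of KO IP, or 14.8, 13.99, 6.34 and 3.93 CPM. The level was lower in marked cells in 4 of 4 libraries. In KO IP, however, the 8.06 CPM that the 0 in marked cells allows is above the 3.93 CPM of unmarked cells, so that library does not settle a direction. Its fitted log2 difference was -4.48 (SE 0.90, 95% interval -6.40 to -2.56), with an adjusted p of 0.137 by edgeR's quasi-likelihood test over 12150 genes, so that it did not pass the threshold of 0.05. Most unmarked cells had no Tdtomato UMI, so the mT state of a single cell could not be read at this depth.

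Cells of both classes carried the same stromal transcripts at like levels. Of 14 stromal genes that the rule did not use, all were tested, none passed in either direction, and their fitted log2 differences ran from -0.13 to 0.20 with a median of -0.04, beside a median of -0.01 over all 12150 genes. Together they made up 33860 to 44052 CPM in marked cells and 35458 to 44497 in unmarked cells, against 24.2 to 56.8 in T cells of the same libraries. Col1a1, a chain of type I collagen, stood at 3372, 2605, 3628 and 3809 CPM in marked cells of WT SC, KO SC, WT IP and KO IP and at 4357, 3243, 3458 and 2924 in unmarked cells. Its difference of -0.06 had a 95% interval from -0.35 to 0.24. Gsn, which severs actin filaments, was at 11810, 13869, 11161 and 10056 in marked and 12598, 14595, 14378 and 9678 in unmarked cells, and Col3a1 was at 7778, 4615, 10377 and 12209 against 8809, 7396, 10199 and 9087. Groups overlapped for all of these genes.

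The genes that chose the stromal cells are given as a description. Dcn was at 8885, 13625, 10831 and 13523 CPM in marked cells and 10438, 11496, 12062 and 12419 in unmarked cells. Pdgfra was lower in marked cells of 4 of 4 libraries, by a fitted log2 difference of -0.26 (SE 0.14), and Dpt was higher in 4 of 4, by 0.17 (SE 0.12). Lum had a difference of -0.11 (SE 0.14), with 2 libraries in each direction.

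Tek, the gene whose regulatory sequence drove Cre, was transcribed alike in marked and unmarked stromal cells (GRCm38 chromosome 4, 94739289 to 94874976, plus strand, protein coding). It was at 209, 175, 79.3 and 88.7 CPM in marked cells and at 182, 171, 80.0 and 87.5 in unmarked cells of WT SC, KO SC, WT IP and KO IP. The log2 difference was 0.07 (SE 0.14, 95% interval -0.24 to 0.37), so a difference of 1 log2 unit in either direction lay outside the interval. After thinning to 5000 UMIs per cell, a Tek UMI was present in 50% of marked and 44.8% of unmarked cells of WT SC, 51.4% and 51.3% in KO SC, 26.8% and 34.2% in WT IP, and 28.6% and 37.5% in KO IP. T cells, of which 34.9% to 67.0% were marked, held 0.434, 0.735, 0 and 6.25 CPM of Tek, and the macrophage gate held none in any library. In the endothelial gate, with 14 cells or fewer, Tek was at 178, 0, 84.8 and 65.3. Leaving the shared barcodes out of KO SC gave 171 for Tek in its unmarked cells, as with them.

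Other endothelial transcripts were scarce in marked stromal cells. Of 20 endothelial genes, with Pecam1 and Cdh5 left out as part of the rule, 6 had enough UMIs to be tested and none passed, with a median log2 difference of -0.11. In marked cells 8 of the 20 had no UMI in any library, namely Tie1, Egfl7, Cldn5, Robo4, Erg, Sox17, Tal1 and Cyyr1. The summed level of the list was 271, 197, 171 and 140 CPM in marked cells and 225, 197, 184 and 167 in unmarked cells. Tek made up the larger part of these sums in both classes of WT SC, KO SC and KO IP, and the smaller part in both classes of WT IP. The few cells of the endothelial gate ranged from 132 to 6555 CPM. Kdr, the main VEGF receptor of EC, was at 9.67, 1.68, 0.891 and 8.06 in marked cells and 0, 0, 1.06 and 11.8 in unmarked cells. Flt1, another VEGF receptor, was at 1.38, 3.36, 5.35 and 0 against 0, 0, 7.40 and 2.30.

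**Figure D3:**
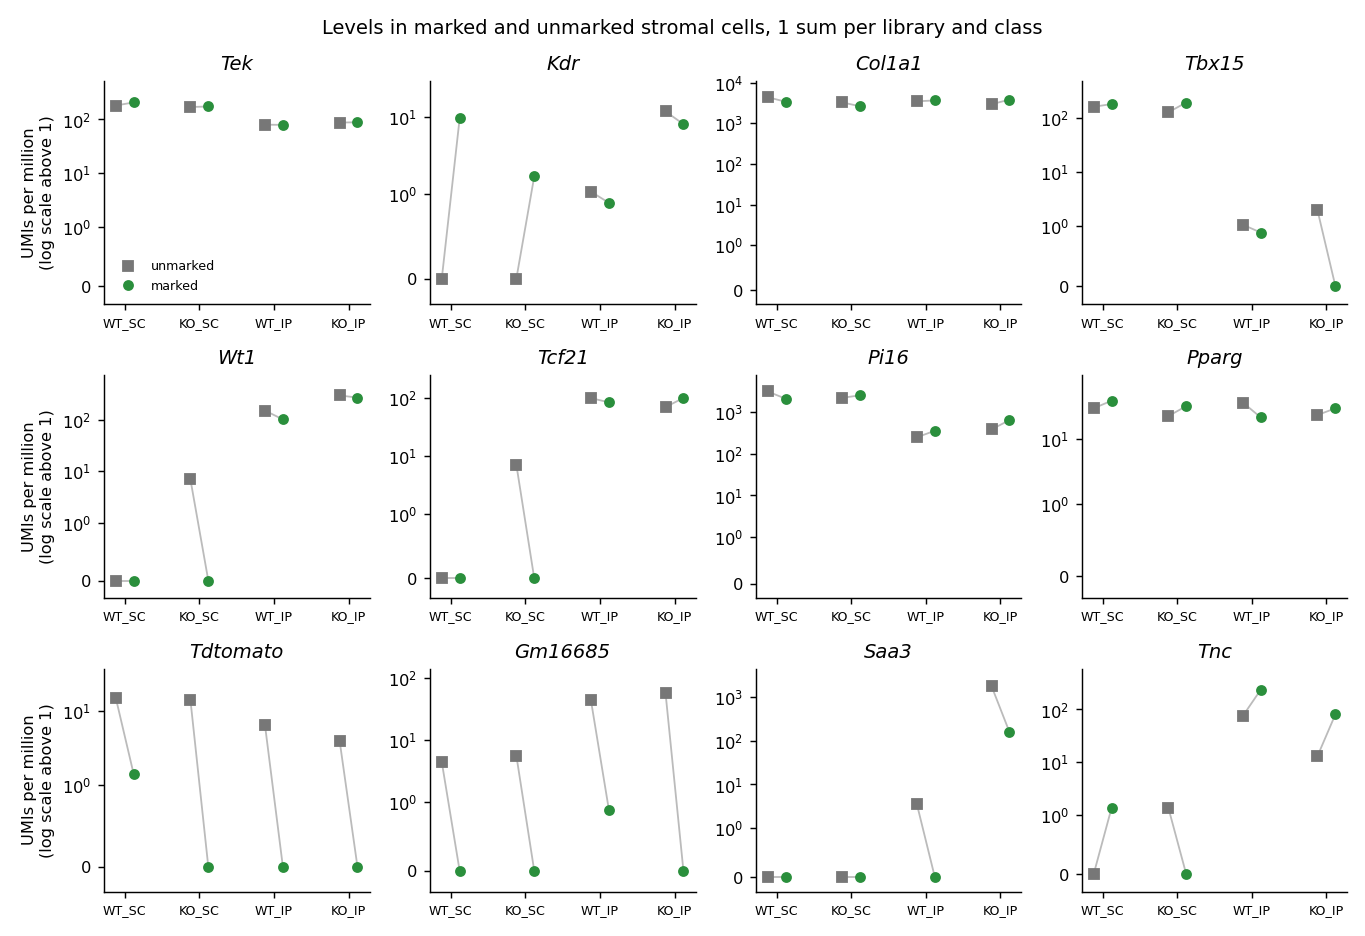
Levels of 12 genes (y axis, CPM, log scale above 1) in marked cells (green circles) and unmarked cells (grey squares) of each library (x axis), with each pair joined by a line and each point a sum over the cells of 1 class in 1 library. Tek, Col1a1 and Pparg lie at like levels in both classes, Tdtomato and Gm16685 lie lower in marked cells of every library, and Tbx15, Wt1 and Tcf21 separate the depots.

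Leukocyte transcripts were far below their levels in gated leukocytes in both classes. The 10 T and NK cell genes came to 4.15, 1.68, 22.3 and 5.38 CPM in marked cells and 16.3, 1.40, 3.87 and 2.30 in unmarked cells, higher in marked cells of KO SC, WT IP and KO IP, against 3792 to 5300 in T cells, and too few UMIs were present to test any of them. B cell genes came to at most 10.1 and 8.40, against 5842 to 6961 in B cells, with 2 of 8 tested and none passing. The 12 macrophage genes came to between 8.29 and 34.7 in marked and 13.99 and 66.9 in unmarked cells, against 16938 to 20585 in the macrophage gate, and Adgre1, C1qb and Fcgr1 had no UMI in marked cells. Any UMI of Cd3e, Cd79a, Lyz2, C1qa, Kdr or Flt1, or over 1% haemoglobin, was found in 13.8%, 8.89%, 31.0% and 20% of marked cells and in 18.2%, 3.12%, 14.6% and 10.9% of unmarked cells. Such a share rises with depth. In unmarked cells matched to the marked cells on depth it was 6.90%, 4.44%, 20.3% and 5.88%, below that of marked cells in every library. Of the adipocyte genes, Adipoq, Plin1, Cidec and Lep had no UMI in marked cells, and only Car3 could be tested (log2 difference -3.24, not passing). No neutrophil gene and 1 lymphatic endothelial gene could be tested, the latter with a difference of 0.04.

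Transcripts of red cells and mesothelium were unevenly spread and touch several results below. The 5 red-cell genes came to 112, 31.9, 117 and 53.8 CPM in marked cells and to 14910, 8586, 406 and 69.8 in unmarked cells of WT SC, KO SC, WT IP and KO IP. Over 1% haemoglobin UMIs occurred in 6 unmarked cells of WT SC, 1 of KO SC and 1 of WT IP, and in no marked cell. The 8 mesothelial genes, which mark the lining of the abdominal cavity, came to 18.0, 13.4, 102 and 269 in marked and 26.6, 12.6, 150 and 891 in unmarked cells. Wt1, also typical of visceral fat, made up nearly all of the sum in WT IP and in marked cells of KO IP. The defining genes Msln, Lrrn4, Krt8 and Krt18 had no UMI in marked cells, whereas Msln alone was at 128 in unmarked cells of KO IP. Mesothelial UMIs per cell were counted over Msln, Upk3b, Upk1b, Lrrn4 and Krt19, without Wt1, Krt8 and Krt18. At least 5 such UMIs were found in 9 unmarked cells of KO IP, 1 of WT SC and no marked cell. At least 1 was found in 6, 5, 2 and 1 marked cells and 8, 3, 0 and 12 unmarked cells. None of the 4 mesothelial genes tested passed, and their median log2 difference was -2.71. The mural list, of pericyte and smooth muscle genes, had 8 of 10 members tested, none passing and a median of 0.12. Its sum was 92.6, 55.5, 700 and 53.8 CPM in marked and 38.5, 54.6, 189 and 126 in unmarked cells, so that marked cells of WT IP stood apart. There Acta2 was at 197 against 19.7 and Tagln at 368 against 76.4, with fitted differences of 2.10 and 1.54 that did not pass, although both had an unadjusted p under 0.05. The part of these transcripts in other differences of WT IP, Tnc among them, was not tested.

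Of 17 depot-related transcription factors, Tbx15, Shox2, Wt1 and Tcf21 lay far apart between the SC and IP libraries, in marked and unmarked cells alike. Tbx15, which is typical of subcutaneous fat, was at 181 and 193 CPM in marked and 161 and 127 in unmarked cells of WT SC and KO SC, and at 0.891 and 0 against 1.06 and 1.97 in WT IP and KO IP. Shox2 was at 33.2 and 37.0 in marked and 42.9 and 44.8 in unmarked cells of the SC libraries and had no UMI in the IP libraries. Wt1, typical of visceral fat, was at 100.7 and 266 in marked and 150 and 293 in unmarked cells of WT IP and KO IP. It had no UMI in either class of WT SC or in marked cells of KO SC, and its 7.00 CPM in unmarked cells of KO SC fell to 0 without the shared barcodes. Tcf21 showed the same arrangement, with 83.7 and 99.5 in marked and 98.6 and 69.2 in unmarked cells of the IP libraries, and 7.00 in unmarked cells of KO SC that were all in shared barcodes. These 4 were chosen after their values were seen, and other members did not separate the depots. Gata6 was at 55.3 and 50.4 CPM in marked and 38.5 and 51.8 in unmarked cells of WT SC and KO SC, and at 48.1 and 140 against 59.9 and 125 in WT IP and KO IP. Hoxc6 was at 22.1, 43.7, 35.6 and 43.0 against 23.7, 43.4, 28.9 and 39.0. Gata4 and Bnc1 had no UMI in marked cells of any library, and at most 2.30 and 13.1 CPM in unmarked cells. Of the 15 factors tested none passed between the classes, with a median log2 difference of 0.03.

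Progenitor and preadipocyte transcripts were both present in marked cells, as in the unmarked cells of the same library. The early progenitor list, with Pi16, Dpp4 and Cd55, marks interstitial progenitors, and the committed list, with Icam1, Col15a1 and Ggt5, marks preadipocytes. Progenitor genes summed to 13944, 13218, 7623 and 7997 CPM in marked cells and to 14170, 12780, 6466 and 5755 in unmarked cells. Preadipocyte genes summed to 3795, 3192, 8009 and 5115 against 3821, 4040, 7377 and 4793. The progenitor sum was thus higher in marked cells of KO SC, WT IP and KO IP and lower in those of WT SC. None of the 14 members of either list passed. The median log2 differences were 0.20 for the progenitor list (range -0.02 to 0.62) and -0.07 for the preadipocyte list (range -0.62 to 0.13), beside -0.01 over all genes. At an unadjusted p under 0.05 by edgeR, 2 progenitor members were higher and 1 preadipocyte member was lower, beside 4.11% of all genes tested.

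Counted cell by cell after thinning to 5000 UMIs, progenitor UMIs outnumbered preadipocyte UMIs in 21 of 28 marked and 21 of 29 unmarked cells of WT SC, 30 of 37 and 28 of 39 of KO SC, 14 of 41 and 38 of 120 of WT IP, and 7 of 14 and 53 of 104 of KO IP. As shares these were 75% and 72.4%, 81.1% and 71.8%, 34.1% and 31.7%, and 50% and 51.0%. Among marked cells of every library some thus had more progenitor than preadipocyte UMIs and others did not. The count sets 1 list sum against another and does not assign a cell to a kind. Pi16 stood at 2046, 2472, 351 and 629 CPM in marked and 3040, 2145, 245 and 378 in unmarked cells, and its difference of 0.22 (SE 0.18) did not pass. Opcml, an adhesion molecule of the progenitor list, was higher in marked cells of 4 of 4 libraries, at 1078, 834, 171 and 156 against 519, 646, 99.3 and 137. Its log2 difference of 0.62 (SE 0.16) had an adjusted p of 0.413 by edgeR and did not pass either.

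Across all genes, few differed between the classes. The edgeR fit with the library as a block tested 12150 genes and called 1 higher in marked cells (0.00823% of those tested) and 9 lower (0.0741%). At an unadjusted p under 0.05 it found 204 higher and 295 lower, and DESeq2 called 0 higher and 1 lower. One sign in all 4 libraries was shown by 649 genes in the higher direction (5.34%) and 838 in the lower direction (6.9%), of which 3 lower genes also passed the threshold. A test on 1 gene alone could not have helped, since an exact sign-flip test over 4 libraries cannot go below p = 0.125. For well measured genes the intervals were narrow: among 1800 genes with at least 1000 UMIs the 95% interval reached a median of 0.32 on the log2 scale to either side of the estimate, and for 1767 (98.2%) the whole interval lay between -1 and 1. For genes with fewer UMIs the intervals were wider, and of the genes that passed several had under 1000 UMIs.

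On the log2(CPM + 1) scale, across genes, which are not independent replicates, marked and unmarked cells of 1 library correlated at Pearson's r of 0.903 to 0.964. Sums of the same class in the other library of a depot correlated at 0.896 to 0.943, and sums from different depots at 0.822 to 0.887. This is a description over 8 sums, which differ in depth, and the sums of KO SC and WT IP hold barcodes in common.

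**Figure D4:**
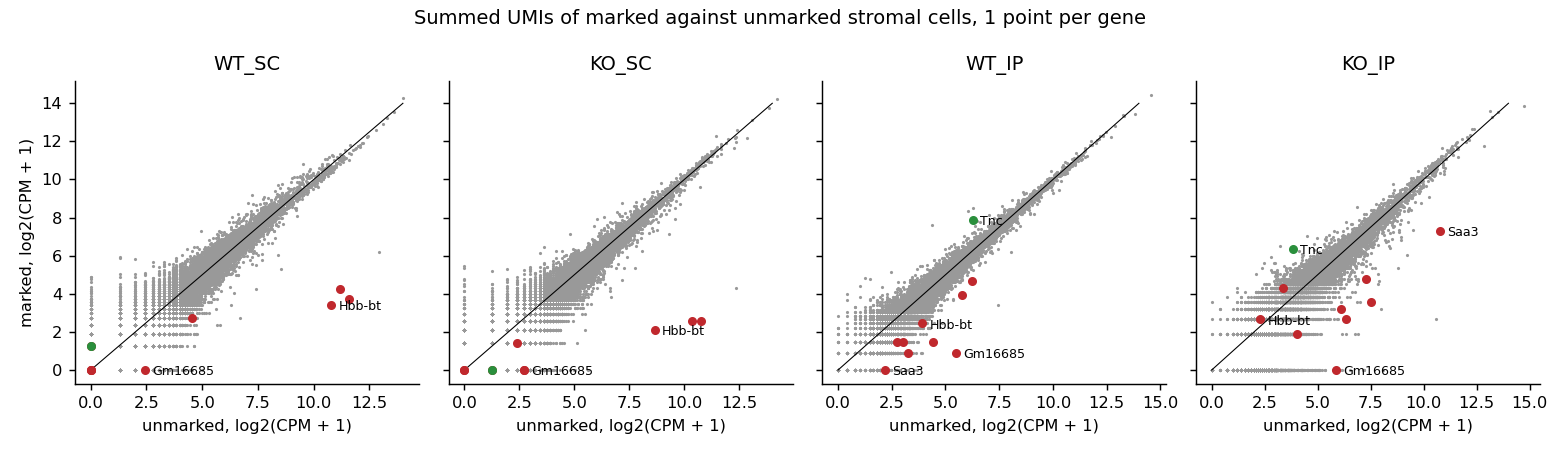
Level of each gene in marked (y axis) against unmarked (x axis) stromal cells, both as log2(CPM + 1), with 1 panel per library. Points follow the diagonal. Red points are the 9 genes that passed as lower in marked cells, and the green point is Tnc, the 1 gene that passed as higher. GFPcds and the genes of the rule are not drawn.

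The 3 genes that passed with the same sign in all libraries were Gm16685, Hba-a1 and Ptger3, each lower in marked cells. Gm16685 is a transcript antisense to Il7 (GRCm38 chromosome 3, 7612705 to 7690001, plus strand, with Il7 on the minus strand). It had no UMI in marked cells of WT SC, KO SC and KO IP and was at 0.891 CPM in those of WT IP, against 4.44, 5.60, 43.7 and 57.1 in unmarked cells. A count of 0 allows up to 4.15, 5.04 and 8.06 CPM in marked cells of WT SC, KO SC and KO IP. The unmarked level of KO SC rested on 4 UMIs. Without the shared barcodes it was 2 UMIs or 2.92 CPM, within what the 0 in marked cells allows. The fitted log2 difference was -5.94 (SE 0.58, adjusted p = 6.12e-04), a value that depends on the prior count where a class is at 0. In the IP libraries 1 cell held 118 of the 124 unmarked UMIs in WT IP, and 1 cell held 114 of 174 in KO IP. Without the WT IP library the value was -7.10 and did not pass (adjusted p = 0.0826 by edgeR). Whether the counting used strand is not given in the sources used here. Marked cells of WT SC, KO SC, WT IP and KO IP held 1366, 874, 1654 and 371 UMIs of GFPcds and 1, 0, 1 and 0 of GFPcds.rev. Whether reads of Il7 entered the count of its antisense transcript was not tested.

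Ptger3, a receptor for prostaglandin E2, is on chromosome 3 from 157566892 to 157645888 (plus strand, protein coding). It was at 5.53, 1.68, 0.891 and 8.06 CPM in marked cells and 22.2, 4.20, 8.45 and 68.5 in unmarked cells, so that it was lower in marked cells of every library, while the levels of the classes overlapped across libraries. In KO SC both levels were below the 5.04 CPM that a count of 0 allows in its marked cells, so the sign there rests on very few UMIs. The log2 difference was -2.55 (SE 0.41, adjusted p = 0.0265). Most of its UMIs were in unmarked cells of KO IP, with 209 UMIs in 26 cells and 51 in the highest cell. The call was lost without WT SC (-2.85), without WT IP (-2.43) and without KO IP (-2.21), and Ptger3 passed in 8 of 20 alternatives, with values from -2.96 to -0.79.

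Hba-a1, an alpha globin, was at 12.4, 5.04, 24.9 and 2.69 in marked cells and 3040, 1706, 73.6 and 15.1 in unmarked cells (log2 difference -5.62, SE 0.83, adjusted p = 0.0177). In KO SC 1 cell held 1212 of its 1219 UMIs. Hbb-bt (-6.21) and Hba-a2 (-5.34) passed as well and were lower in 3 of 4 libraries, and Hbb-bs (-5.01) was lower in 4 of 4 without passing. The globin copies are close to identical, and reads may have been split among them. The call for Hba-a1 was lost without WT SC (-4.29) and without KO SC (-4.69), and so was that for Hba-a2 (-4.14 and -4.35), while Hbb-bt passed without any 1 library. With cells that held transcripts of other cell types left out, the difference of Hba-a1 was 0.03, and the calls for all 3 globin genes were lost. That filter also removed cells with over 1% haemoglobin UMIs, so it acted on the same genes and the loss is no separate evidence.

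Of the other genes that passed, 4 were named after their values were seen, and all of them were read mainly in unmarked cells of KO IP. Saa3, an acute-phase serum amyloid, had no UMI in the SC libraries, 0 against 3.52 CPM in WT IP and 159 against 1760 in KO IP (log2 difference -3.47, SE 0.31, adjusted p = 6.12e-04). Its 5367 UMIs in unmarked cells of KO IP came from 21 cells, with 1650 in the highest. Serpinb2, a plasminogen activator inhibitor, was at 1.78 against 20.4 in WT IP and 5.38 against 80.0 in KO IP, with no UMI in SC (-3.63, adjusted p = 0.0177). Plxna4, a semaphorin co-receptor, was at 10.8 against 183 in KO IP and lower in 3 of 4 libraries (-3.36, adjusted p = 0.0238). Lcn2, an iron-carrier binding protein, was at 26.9 against 154 in KO IP (-2.36, adjusted p = 0.0493). Without KO IP, Plxna4 was at -1.81 and the others did not meet the filter for a test, and without WT IP neither Plxna4 (-3.73) nor Lcn2 (-2.51) passed. Lcn2 also did not pass without KO SC (-2.34), and Saa3 and Serpinb2 did not meet the filter without WT IP. Unmarked cells of KO IP also held the 9 cells with at least 5 mesothelial UMIs, and with every cell that held a UMI of Msln, Upk3b, Upk1b, Lrrn4 or Krt19 left out, a choice made after the data were seen, 5 genes passed as lower in place of 9. Saa3 was among these 5, whereas Serpinb2, Plxna4 and Lcn2 were not. Saa3 also passed with shared barcodes and haemoglobin cells left out as well.

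Tnc, tenascin C, a matrix glycoprotein of remodelling tissue, was the 1 gene that passed as higher in marked cells (chromosome 4, 63959785 to 64047015, minus strand, protein coding). It was at 1.38, 0, 237 and 80.6 CPM in marked cells and 0, 1.40, 75.7 and 13.1 in unmarked cells, higher in 3 of 4 libraries (log2 difference 1.92, SE 0.28, adjusted p = 0.0177). All levels in WT SC and KO SC were below the 4.15 and 5.04 CPM that a count of 0 allows in their marked cells. The signs in SC are thus uninformative, and the difference was read in the IP libraries. In marked cells of WT IP its 266 UMIs came from 12 cells with 99 in the highest, and in those of KO IP 1 cell held 29 of 30. The call was lost without WT IP (2.42) and without KO IP (1.59). It was also lost with cells holding mesothelial transcripts left out (1.14), with unmarked cells matched on depth (1.11), after thinning (1.04), with cells marked from 1 GFPcds UMI (1.46), with at least 100 UMIs per gene (1.92) and by DESeq2 (1.97). Over 20 alternatives Tnc passed in 10 and was higher in marked cells in all.

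The next genes by p that were higher in marked cells of 4 of 4 libraries did not pass. Fgf10, a growth factor of mesenchymal cells, was at 6.91, 23.5, 38.3 and 53.8 CPM against 4.44, 8.40, 11.98 and 24.6 (log2 difference 1.36, SE 0.27, adjusted p = 0.136 by edgeR). Adamts9, a matrix protease, was at 153, 116, 84.6 and 96.8 against 53.3, 89.6, 34.5 and 74.1 (0.90, SE 0.20, adjusted p = 0.268). Csrp2 had a difference of 0.61, Prkab2 of 0.71, Nfatc1 of 0.70, Ahctf1 of 0.62, Irs2, an adaptor of insulin signalling, of 0.55, Smurf1 of 0.52 and Srgn of 0.81. Pappa2 had 2.56, with 59.1 against 5.90 in KO IP and under 6 CPM elsewhere. Has2os, antisense to the hyaluronan synthase gene Has2, had 0.86.

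The next genes by p in the lower direction did not pass either. Dock10 was at 30.4, 20.2, 28.5 and 21.5 in marked and 97.6, 36.4, 52.5 and 51.2 in unmarked cells (log2 difference -1.17, SE 0.22, adjusted p = 0.0822 by edgeR). Its levels in marked cells were all below those in unmarked cells. Txnip, an inhibitor of thioredoxin that responds to glucose, was at 305, 267, 488 and 336 against 399, 469, 612 and 684 (-0.62, SE 0.15, adjusted p = 0.358). Apoe, a lipid carrier, was at 38.7, 156, 701 and 742 against 368, 379, 1245 and 947 (-1.24, SE 0.30, adjusted p = 0.392), and 324 in unmarked cells of KO SC without the shared barcodes. Apoe passed with cells thinned to 5000 UMIs (-1.06) and with no filter on low counts (-1.26). Ccnb1ip1 (-2.63), Syne3 (-2.06), Prr16 (-1.51) and Tec (-3.75) also had 1 sign in 4 libraries without passing.

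Genes of the lists chosen for this tissue and lineage mostly sat near 0. The endothelial to mesenchymal transition list, of regulators such as Snai2 and Zeb1 and mesenchymal genes such as Vim, had 20 members tested, none passing and a median of -0.05 (range -0.36 to 0.42). Snai2 was at 2.76, 10.1, 8.91 and 16.1 CPM in marked and 5.92, 4.20, 9.86 and 5.90 in unmarked cells, and Vim at 2337, 2376, 3605 and 3457 against 2635, 2366, 3380 and 2574. Of 31 fibrosis and matrix genes, Tnc passed and no other did, with a median of -0.01. Fn1, fibronectin, was at 3545, 2365, 4093 and 3575 against 3170, 2881, 3449 and 2830. Of 21 adipogenic and lipid genes tested none passed (median -0.03). Pparg, the master regulator of adipogenesis, was at 38.7, 31.9, 21.4 and 29.6 against 29.6, 22.4, 36.3 and 23.3 (log2 difference 0.01, SE 0.27), and Fabp5 had a difference of 0.68, higher in 4 of 4 libraries, that did not pass.

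Senescence and p53 genes had 17 members tested, none passing and a median of -0.02. Cdkn1a, the p21 cell cycle inhibitor, was at 340, 303, 123 and 77.9 CPM in marked and 175, 302, 129 and 125 in unmarked cells (log2 difference 0.10, SE 0.20), with 2 libraries in each direction. Cdkn2a had 10 UMIs in all stromal sums, with none in the SC libraries, 1.78 against 0.705 CPM in WT IP and 0 against 1.97 in KO IP. The telomerase and shelterin list had 8 members tested, none passing and a median of -0.21. Vegfa, the main angiogenic growth factor, was at 100.9, 143, 26.7 and 29.6 against 72.5, 176, 24.3 and 33.1 (0.04), within an angiogenic list with 13 members tested, none passing and a median of 0.04.

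Immune-related lists gave no call in the main fit either. The cytokine and chemokine list had 16 members tested, none passing and a median of -0.05, with 2 higher and 5 lower at an unadjusted p under 0.05, beside 4.11% of all genes tested. Cxcl12, a chemokine that retains leukocytes and progenitors, was lower in 4 of 4 libraries, at 130, 80.7, 354 and 69.9 against 210, 86.8, 447 and 180 (log2 difference -0.59, SE 0.18), without passing. Cxcl9 was at 325 against 65.2 in WT IP and under 14 CPM elsewhere (1.89, not passing in the main fit). It did pass with the shared barcodes left out of KO SC, also when mesothelial transcripts and haemoglobin cells were left out as well. Cxcl9 passed too with at least 1000 genes per cell and without the KO SC library. The complement list had 10 tested with a median of -0.12, the MHC list 12 with -0.12, and the interferon list 14 with 0.12, none with a member that passed. Immediate early genes, which rise on tissue dissociation, had 19 tested with a median of 0.09. Glycolysis had 14 with -0.08, mitochondrially encoded genes 13 with -0.06, cytosolic ribosomal genes 86 with 0.03 and the CD142 stromal list 8 with -0.03, again with none passing.

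**Figure D5:**
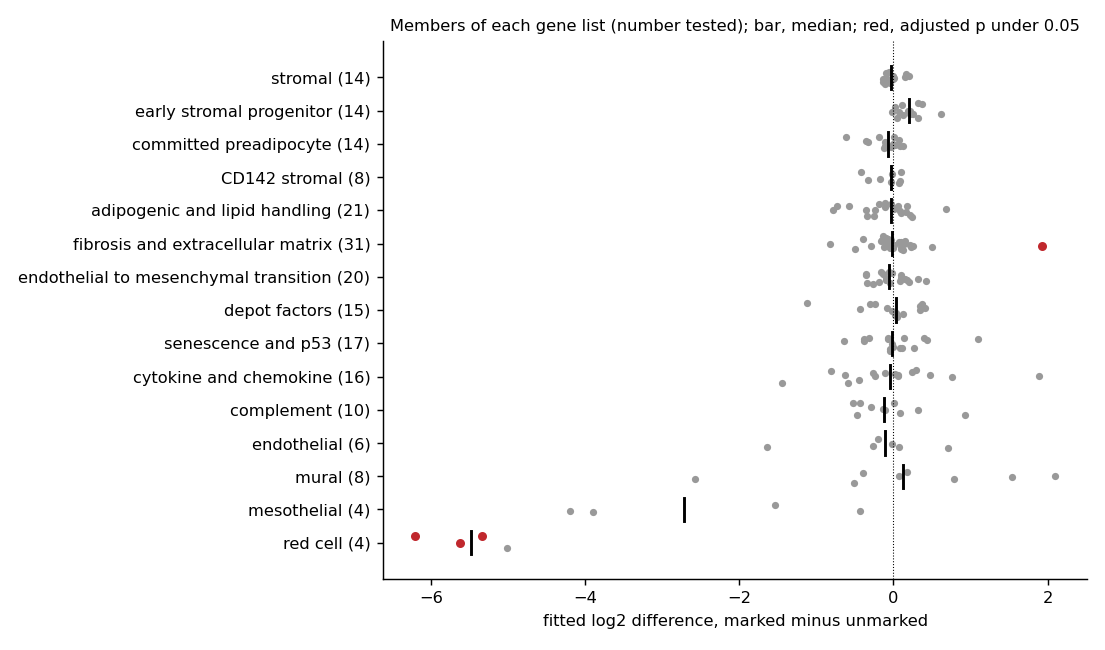
Fitted log2 difference, marked minus unmarked (x axis), of each tested member (points) of 15 gene lists (y axis, with the number tested), with bars at the medians and red points for members that passed. Medians of 12 lists lie between -0.12 and 0.20, the mural list is at 0.12 with a wide spread, and the mesothelial and red-cell lists are at -2.71 and -5.48.

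Whether marked minus unmarked differences depended on depot or genotype was tested with interaction terms over the same 8 sums. A difference by depot passed for 7 of 12150 genes (0.0576%) and by genotype for 14 (0.115%). The 4 globin genes were among the 7, and Slpi, Upk3b, Clu, Tagln and Acta2 among the 14. Slpi was at 1541 CPM in unmarked cells of KO IP against 5.38 in marked cells, from 4701 UMIs in 18 cells of which 1 held 2782. Upk3b, a mesothelial gene, had 444 UMIs in 11 unmarked cells of KO IP. Each interaction rests on 2 libraries against 2, and neither Tek, Col1a1, Pparg nor Tdtomato was among these genes.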

How the data were processed

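Single-cell RNA of 4 libraries was analysed. The files hold raw UMI counts for each gene in each barcode, deposited by the authors. They come from 10x Genomics 3' libraries, and the file headers name Cell Ranger 7.0.0. The submitters' processing notes name STAR 2.6 and mm10. The use of intronic reads and of strand is not given in the sources used here, and intronic reads, if counted, raise long genes such as Opcml. The 32290 features include 5 reporter sequences. Coordinates came from GENCODE M21 on GRCm38, by gene identifier. Every column of counts was used.

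Counts were summed per library and class (8 sums) and tested with edgeR 4.0.16 in R 4.3.3: quasi-likelihood fit, library as block, TMM scaling, genes with at least 20 UMIs in all and a UMI in at least 3 sums. P-values were adjusted by Benjamini-Hochberg over all tested genes other than those of the rule, at a threshold of 0.05. The block pairs marked and unmarked cells of the same library, which is the same suspension and run. Scrublet, run through scanpy 1.11.5 with 5% as the expected rate, marked 0.556% of kept barcodes. These stayed in the main counts. Levels are CPM of a sum. A count of 0 was taken to allow 3 counts. The exact Clopper-Pearson intervals for shares are at 95%. Thinning drew 5000 UMIs per cell. The fit was tested on simulated counts with the same set spread for every gene. That simulation did not cover genes whose UMIs lay mainly in a few cells, as for several genes that passed. Alternatives used median-of-ratios scaling, DESeq2 1.42.0, other filters, other GFPcds limits, depth matching, thinning and subsets of cells or libraries. Scripts ran in Python 3.11.15 with pandas 2.3.3, numpy 2.4.6, matplotlib 3.10.9 and scipy 1.17.1.

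Named genes were those passing with the same sign in every library, then the next by p with the same sign in 4 of 4 libraries up to 12 a direction, members of lists that passed, the 2 most counted members of a list without a call, and a fixed set (Tert, Tek, the reporters, Cdkn1a, Cdkn2a, Vegfa, Pparg, Col1a1). The members, lists and rules were chosen with earlier results of these data known. Nothing says that the libraries came from separate mice beyond genotype and depot, so p-values measure only the spread between these sums.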

Additional observations from a re-analysis of the deposited data

Results flagged for a closer look

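The interaction terms of the edgeR fit gave 7 genes whose difference between marked and unmarked stromal cells itself differed by depot, and 14 by genotype, each with 2 libraries against 2. By depot (IP minus SC, on the log2 scale) the terms were 5.65 for Hbb-bs, 6.39 for Hba-a1, 6.12 for Hba-a2 and 6.13 for Hbb-bt, so that these globins were lower in marked cells mainly in SC, where 7 unmarked cells exceeded 1% haemoglobin UMIs. Nxph1 had -9.76 and rested on unmarked cells of KO IP, where 202 UMIs lay in 8 cells and 104 in 1 of them. Gdf15, a stress-induced cytokine, had -4.61, with 58.05 and 47.1 CPM in marked against 1.48 and 15.4 in unmarked cells of WT SC and KO SC, and 11.6 and 0 against 40.2 and 7.21 in WT IP and KO IP. In marked cells of WT SC all 42 UMIs of Gdf15 were in 1 cell. Hmcn2, a matrix protein, had 1.92, with 53.9 and 40.3 in marked against 206 and 150 in unmarked cells of the SC libraries and 262 and 172 against 210 and 214 in the IP libraries.

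By genotype (KO minus WT) the genes with a negative term were Slpi (-9.36), Lgals7 (-6.84), Tagln (-6.34), Prg4 (-2.73), Acta2 (-4.62), Adm (-2.43), S100a4 (-2.52), Clu (-3.60), Timp1 (-2.56), Myo1d (-2.91), Cxcl2 (-3.49) and Upk3b (-13.36), and those with a positive term were C77080 (3.90) and Adamts16 (2.65). Slpi, Lgals7, Clu and Upk3b were high in unmarked cells of KO IP alone, at 1541, 254, 589 and 146 CPM, in the class that held the 9 cells with at least 5 mesothelial UMIs. Without cells that held mesothelial transcripts 4 genes passed by genotype, of which 3 (Adm, C77080 and Tagln) were among the 14. With shared barcodes and haemoglobin cells left out as well 9 passed, of which 6 were among the 14 (Acta2, Adamts16, Adm, C77080, Cxcl2 and Tagln). Slpi, Lgals7 and Clu passed in neither of these fits. Upk3b could pass in neither, since every cell with a UMI of it was left out. Tagln and Acta2, smooth muscle genes, were at 368 and 197 in marked cells of WT IP, and 230 of the 413 Tagln UMIs there were in 1 cell.

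Stromal cells with 1 or 2 GFPcds UMIs, which entered neither class, held Tdtomato at 44.4 CPM (WT SC), 19.0 (KO SC), 12.7 (WT IP) and 8.51 (KO IP). These levels rest on 8, 3, 10 and 4 UMIs, and each was above that of the unmarked cells of the same library (14.8, 13.99, 6.34 and 3.93). No test was run on them.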

How the results depend on the processing

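The main fit called 1 gene higher and 9 lower in marked cells. The number called higher was 0 with DESeq2, with at least 100 UMIs per gene, without the replicate block, with cells marked from 1 GFPcds UMI and with unmarked cells matched on depth, 16 with no filter on low counts, and 2 with at least 1000 genes per cell (Tnc and Cxcl9), without shared barcodes, and without shared barcodes, mesothelial and haemoglobin cells together, where Tnc did not pass. The number called lower was 1 with DESeq2, 79 with no filter, 3 with at least 100 UMIs, 0 without the block, 5 from 1 GFPcds UMI, 2 with depth matching, 3 without cells holding transcripts of other types, 5 without mesothelial cells and 2 without all 3 kinds. Leaving out 1 library gave 0 to 2 higher and 7 to 8 lower. Without the block pairing the classes of a library, no gene passed and 232 had an unadjusted p under 0.05. Depot terms passed for 4 genes at 100 UMIs and 1 with these 3 kinds of cell left out, against 7. Genotype terms passed for 1 gene at 100 UMIs, 4 without mesothelial cells and 9 without all 3, against 14. Tdtomato passed in 1 of 18 alternatives, the fit with no filter (-4.50, adjusted p = 0.00139 by edgeR), and was -6.64 to -0.54 over all of them. Counting cells from 1 GFPcds UMI gave marked shares of 38.5% (KO SC), 32.0% (WT IP) and 16.5% (KO IP), and the share in KO SC was 43.4% with at least 1000 genes, 42.5% without shared barcodes and 38.4% after thinning. Reversed globin values were those of Hba-a1 (0.029) and Hba-a2 (0.35) without cells holding transcripts of other types and Hba-a2 (0.47) without all 3 kinds. These fits left out cells with over 1% haemoglobin UMIs, so they filtered on the same genes. Serpinb2 (0.33) and Saa3 (0.94) were reversed from 1 GFPcds UMI. Of 20 alternatives Gm16685 passed in 17, Hbb-bt in 15, Hba-a1 in 11, Tnc in 10, Plxna4 in 9 and Ptger3 in 8. Saa3 passed in 14 of 18, Serpinb2 in 9 of 18 and Lcn2 in 6 of 19. The alternatives on shared barcodes, mesothelial transcripts and haemoglobin were chosen after the data were seen. Over 232 named or list genes, 4082 of 4523 values under 20 alternatives kept the main direction, and 96 genes kept it in all of theirs. Where no value is given for a change, the cause was not tested. The fewest cells behind a sum were the 15 marked cells of KO IP.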
